A study of Mus musculus with 23 samples.

Results

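Transcripts of 10 acute phase proteins were followed across furan doses in mouse liver: the serum amyloid A genes Saa1, Saa2 and Saa3, the orosomucoid genes Orm1, Orm2 and Orm3, the haem scavengers Hp and Hpx, and the pathogen-binding proteins Lbp and Crp. The members were taken by name from the symbols matched to the array, and all 10 were among the 19898 genes tested. The animals were female B6C3F1 mice, bought at 5 to 6 weeks of age, acclimatised for at least 7 days and given furan in corn oil by oral gavage for 21 days. Liver was taken 4 h after the last dose from 5 control animals given corn oil alone (0 mg/kg body weight per day) and from treated animals: 4 received 1 mg/kg, 5 received 2 mg/kg, 4 received 4 mg/kg and 5 received 8 mg/kg. Furan is a volatile ring compound, formed in heated foods, that injures the liver after oxidation by cytochrome P450. Each of the 23 arrays carried the liver RNA of 1 animal in the Cy5 channel and a universal mouse reference RNA in the Cy3 channel, with no dye swap, and a level below is log2 of liver over reference. Animals were housed 5 to a cage and the series text describes the samples as biological replicates.

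Acute phase proteins are plasma proteins that hepatocytes release in changed amounts after infection or injury. Kupffer cells and other macrophages release interleukin-1, interleukin-6 and tumour necrosis factor, which act on hepatocytes through STAT3, NF-kB and C/EBP factors. In mice serum amyloid A and orosomucoid transcripts are among the strongest responders, while Crp, a major reactant in humans, responds weakly. Saa1 and Saa2 encode apolipoproteins of high-density lipoprotein made mainly in the liver, whereas Saa3 is also made by macrophages and fat cells.

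Every member had 1 probe, which was well above background in both channels on 23 of 23 arrays and saturated on 0. The hepatocyte markers were above background on all arrays, 8 of 8. Transcripts of pancreatic digestive enzymes stood out on 4 arrays (2 mg/kg replicates 1 and 5, 4 mg/kg replicate 1 and 8 mg/kg replicate 5), where the 4 of 10 such markers that could be tested had a mean 2.09 to 3.11 log2 units above that of the controls, against at most 0.55 elsewhere. Of 6 adipose markers 5 were above background on 2 mg/kg replicates 1 and 5 and 4 mg/kg replicate 1, against 1 to 3 on the other arrays. Arrays lay on 5 slides, and no slide held 1 group alone. Arrays of 1 group correlated with a median r of 0.976 and arrays of different groups with 0.974, across genes.

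Of the 10 transcripts 1 passed the test in a comparison with control: Lbp was lower at 8 mg/kg. That call did not hold in all ways of processing, nor when single animals were left out, as given below. The other 9 did not pass the test at any dose. At 8 mg/kg against control the members' median change was 0.005 on the log2 scale, beside -0.0272 over all genes tested, and 5 of 10 lay above 0. In that comparison 8.01% of all genes passed an adjusted p of 0.05 (limma, Benjamini-Hochberg over all genes tested), 3.76% of them as lower calls, so 1 of 10 members is close to the background. At 4 mg/kg 0 members passed beside 0.0804% of all genes, with 0 at an unadjusted p under 0.05 and a median change of -0.21. Slide 3, where ratios of most members were high (below), held no 4 mg/kg animal but 1 control. With slide as a block Hp, Hpx, Crp, Orm2 and Saa2 lay at 0.03, 0.02, 0.02, 0.05 and 0.07 at 4 mg/kg. Without it they lay at -0.19, -0.28, -0.28, -0.21 and -0.20. Saa3, Orm3 and Lbp stayed below 0 with the block, and Saa1 and Orm1 above. At 2 mg/kg 0 members passed beside 0.0101% of all genes. All 10 estimates lay above 0 there, with a median of 0.24, and 1 (Saa1) had an unadjusted p under 0.05. Without replicates 4 and 5 of that dose, described below and left out after their values were seen, 2 of 10 (Saa1 and Orm3) lay above 0 and 8 below, with a median of -0.15. Replicate 5 was the only 2 mg/kg animal on slide 3. With slide as a block as well, Saa1, Orm3 and Crp lay above 0 and the others below. Hp, Hpx, Orm1 and Saa2 then lay at -0.005, -0.06, -0.05 and -0.18, against -0.205, -0.30, -0.18 and -0.42 without the block. At 1 mg/kg 0 members and 0% of genes passed, with 0 members at an unadjusted p under 0.05. In the direct comparison of 8 with 4 mg/kg 0 members passed beside 0.206% of all genes, with 0 at an unadjusted p under 0.05. On a linear slope over dose 1 member, Lbp, passed beside 10.4% of all genes. The comparisons with control share the same 5 control animals.

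**Figure D1:**
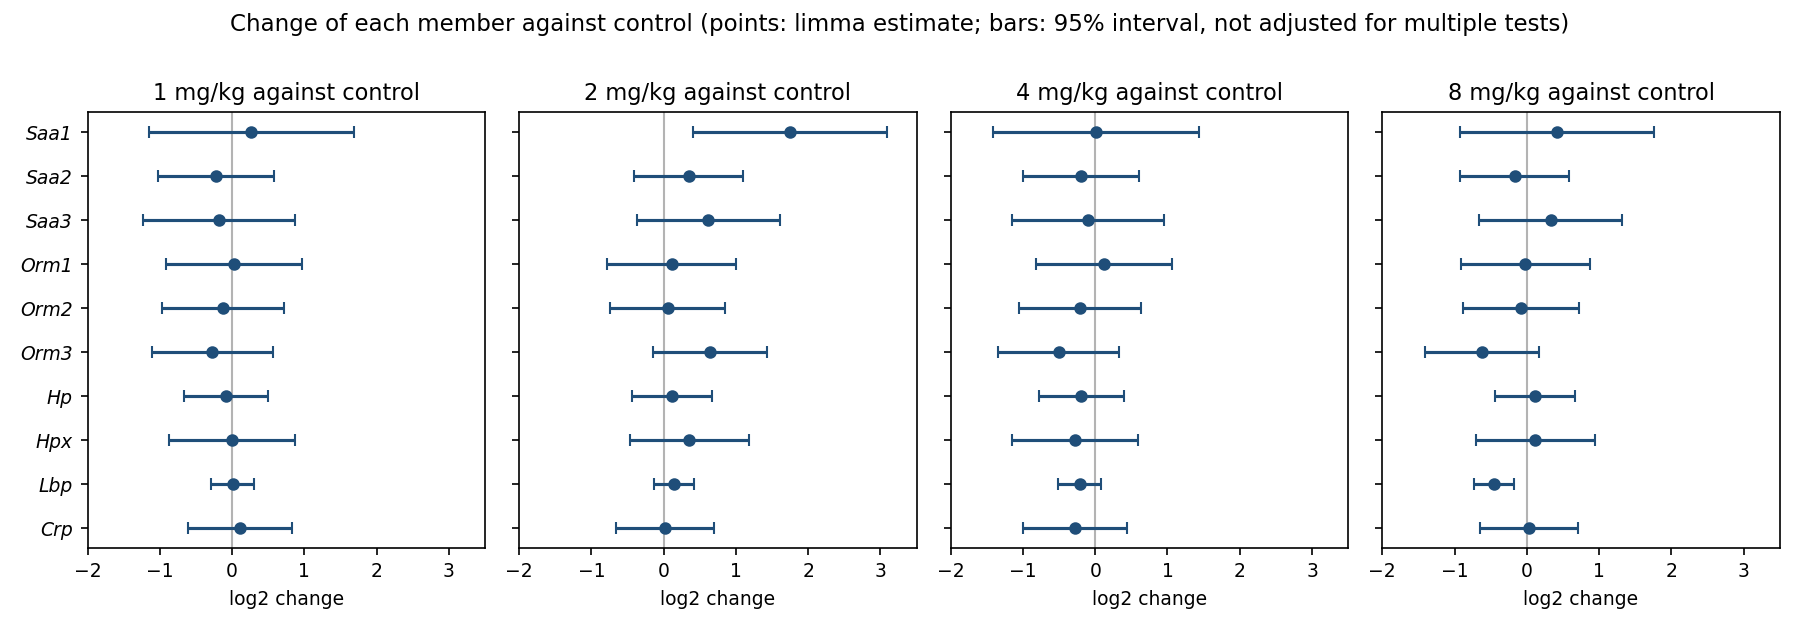
Change of each member against control for the 4 doses, as log2 fold change on the x axis with members on the y axis; points are limma estimates and bars 95% intervals. The interval of Lbp at 8 mg/kg, from -0.73 to -0.18, lies wholly below 0, and that of Saa1 at 2 mg/kg, from 0.40 to 3.09, lies above 0 though its adjusted p of 0.455 (limma) did not pass.

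Lbp encodes lipopolysaccharide-binding protein, which hands bacterial endotoxin to CD14 for recognition by Toll-like receptor 4. Its log2 levels in the 5 control animals were 3.00, 3.34, 3.00, 2.89 and 2.75. In the 5 animals at 8 mg/kg they were 2.62, 2.59, 2.34, 2.60 and 2.55. In the ratio all 5 animals at 8 mg/kg lay below every control animal, and below the other 18 animals of the study. Such a separation of every treated animal from every control occurred in 8.75% of all genes tested and, among the members, in Lbp alone. In the quantile-normalised Cy5 signal without the reference the groups overlapped. There 8 mg/kg replicate 2, at 13.235 on the log2 scale, lay above control replicate 5 at 13.067. The change was -0.46 ± 0.13 (SE, n = 5 and 5), a fold of 0.729, with a 95% interval of -0.73 to -0.18 and an adjusted p of 0.0389 (limma). Liver was measured in bulk, so fewer cells of a type and less RNA per cell cannot be told apart.

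Levels of Lbp at the doses between were 3.12, 3.02, 2.93 and 2.95 at 1 mg/kg, all within the control range. At 4 mg/kg they were 2.81, 2.73, 2.80 and 2.78, at the lower edge of the controls, and the change of -0.22 ± 0.14 did not pass (adjusted p = 0.732, limma). At 2 mg/kg they were 2.84, 2.97, 2.85, 3.70 and 3.32, with replicate 4 above all 22 other animals. Over all 5 groups the slope was -0.0662 ± 0.0157 log2 units per mg/kg (adjusted p = 0.00761, limma), a call that was lost with Cy5 alone (adjusted p = 0.0796, limma) and with scale normalization (0.194). Within the 4 slides that held both groups, the 8 mg/kg animals were lower than the controls by 0.26 to 0.99, in 4 of 4. With slide as a block the change was -0.46 ± 0.13 (adjusted p = 0.0337, limma). The call at 8 mg/kg held in 9 of 17 other ways of processing. Some of those 9 could not alter the Lbp ratio: normalization of mean brightness between arrays, and averaging of probes, as Lbp had 1 probe. Others of them only left out animals at 2 mg/kg, which enter this comparison through the shared spread alone. The tally therefore overstates how firm the call is. It was lost when control replicate 1, 2, 3 or 4, or any 1 of the 5 animals at 8 mg/kg, was left out (adjusted p = 0.00794 to 0.111 over all left-out animals, limma). In the Cy5 signal without the reference the change was -0.55 ± 0.25 (adjusted p = 0.235, limma).

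**Figure D2:**
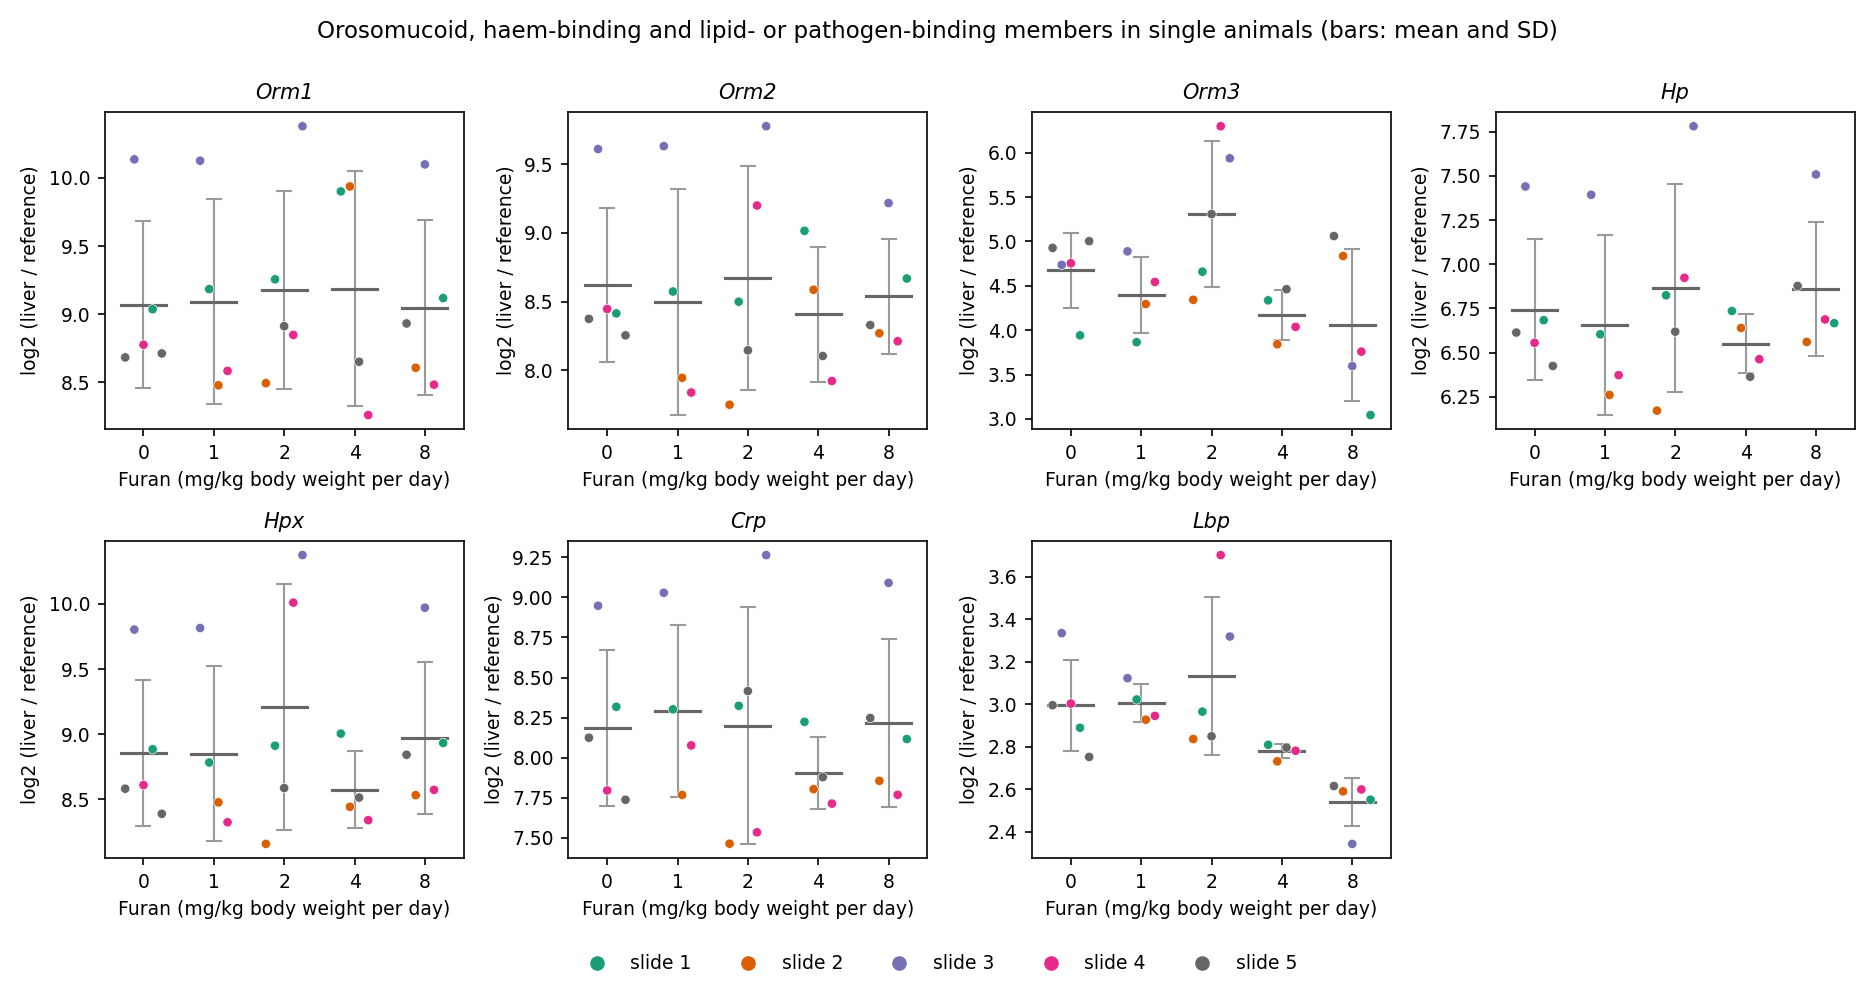
Log2 of liver over reference on the y axis against furan dose in mg/kg body weight per day for Orm1, Orm2, Orm3, Hp, Hpx, Crp and Lbp; each point is 1 animal coloured by slide, with the group mean and SD. The 5 points of Lbp at 8 mg/kg, between 2.34 and 2.62, lie below all others, and for Orm1, Orm2, Hp, Hpx and Crp the slide 3 animal is the highest of its group wherever slide 3 holds one.

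Saa1 and Saa2 are neighbouring genes whose sequences are nearly the same. Their upstream sequences are shown because their levels were high in the same single animals. The 250 bases before the transcription start come from RefSeq (GRCm38.p6), Saa1 from chr7:46742981-46743230 on the minus strand and Saa2 from chr7:46751583-46751832 on the plus strand. Capitals mark bases that differ from, or have no partner in, the other gene, and 238 of 249 aligned bases (95.6%) were identical.
Saa1: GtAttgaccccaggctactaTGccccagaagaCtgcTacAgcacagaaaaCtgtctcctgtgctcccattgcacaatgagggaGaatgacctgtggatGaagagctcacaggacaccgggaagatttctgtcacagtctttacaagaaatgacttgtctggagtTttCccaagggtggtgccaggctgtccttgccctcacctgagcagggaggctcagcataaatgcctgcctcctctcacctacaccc
Saa2: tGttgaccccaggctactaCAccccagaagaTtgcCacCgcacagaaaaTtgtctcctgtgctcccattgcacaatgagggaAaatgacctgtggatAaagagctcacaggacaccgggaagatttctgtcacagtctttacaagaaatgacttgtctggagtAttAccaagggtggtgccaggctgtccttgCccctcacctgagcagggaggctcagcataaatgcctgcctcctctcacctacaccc
Against Saa3 the upstream identity was 59.4% for Saa1 and 61.9% for Saa2. The transcripts of Saa1 and Saa2 are also known to be alike, and cross-hybridisation between their probes was not tested. The names follow the current gene table, while older sources exchange these names.

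Both liver-type serum amyloid A transcripts were far higher in 2 single animals at 2 mg/kg than in the rest of the study. Saa1 levels at 2 mg/kg were 2.86, 3.31, 3.01, 7.17 and 6.88. In the controls they were 2.25, 3.49, 3.13, 3.35 and 2.29, and at 8 mg/kg 3.07, 3.64, 3.75, 3.07 and 3.04. Replicates 4 and 5 at 2 mg/kg therefore lay apart from all others, while the remaining 3 animals of that dose lay inside the control range. Levels were 3.27, 3.12, 3.10 and 3.20 at 1 mg/kg and 3.02, 3.04, 2.63 and 2.96 at 4 mg/kg, again inside the control range. The change at 2 mg/kg was 1.75 ± 0.64 (SE, n = 5 and 5), a fold of 3.35 with a 95% interval of 0.40 to 3.09, and did not pass (limma, adjusted p = 0.455). Without replicates 4 and 5, left out after their values were seen, it was 0.16 ± 0.25 (adjusted p = 0.958, limma). At 8 mg/kg it was 0.41 ± 0.64 (adjusted p = 0.803, limma).

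Saa2 followed the same animals. Its levels at 2 mg/kg were 7.66, 7.98, 8.56, 9.89 and 10.05, against 8.48, 9.08, 8.38, 8.20 and 8.27 in the controls. The same 2 animals were again the highest of all 23, and 2 mg/kg replicate 1 was the lowest of all. At 1 mg/kg the levels were 8.80, 8.22, 7.93 and 8.10, at 4 mg/kg 8.60, 8.13, 8.22 and 8.17, and at 8 mg/kg 8.35, 8.19, 9.00, 8.25 and 7.80. These 3 groups overlapped the controls. The change was 0.35 ± 0.36 at 2 mg/kg and -0.17 ± 0.36 at 8 mg/kg (adjusted p = 0.871 at 8 mg/kg, limma). Without replicates 4 and 5 the change at 2 mg/kg turned to -0.42 ± 0.26 (adjusted p = 0.862, limma). With slide as a block as well, that change was -0.18 ± 0.16 (adjusted p = 0.793, limma).

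Saa3 was high in 1 of these animals and not in the other. Its levels at 2 mg/kg were -2.29, -2.44, -1.99, 1.42 and -2.26, so that replicate 4 stood apart and replicate 5 lay with the rest. In the controls they were -2.13, -2.25, -2.20, -1.98 and -2.09, and at 8 mg/kg -1.80, -1.71, -1.45, -1.88 and -2.17. Of the animals at 8 mg/kg 4 of 5 lay above every control and 1 inside the control range. At 1 mg/kg they were -2.48, -2.33, -2.23 and -2.21, and at 4 mg/kg -2.60, -2.23, -1.92 and -2.19. The slope over dose was 0.03 ± 0.05 (adjusted p = 0.825, limma). Without 2 mg/kg replicate 4 it was 0.05 ± 0.016 (adjusted p = 0.0388, limma), past the threshold, and without both animals the adjusted p was 0.0423 (limma). Of all genes 11.7% and 13.7% passed on the slope in these settings, in that order. The change at 8 mg/kg was 0.33 ± 0.48 (adjusted p = 0.781, limma).

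**Figure D3:**
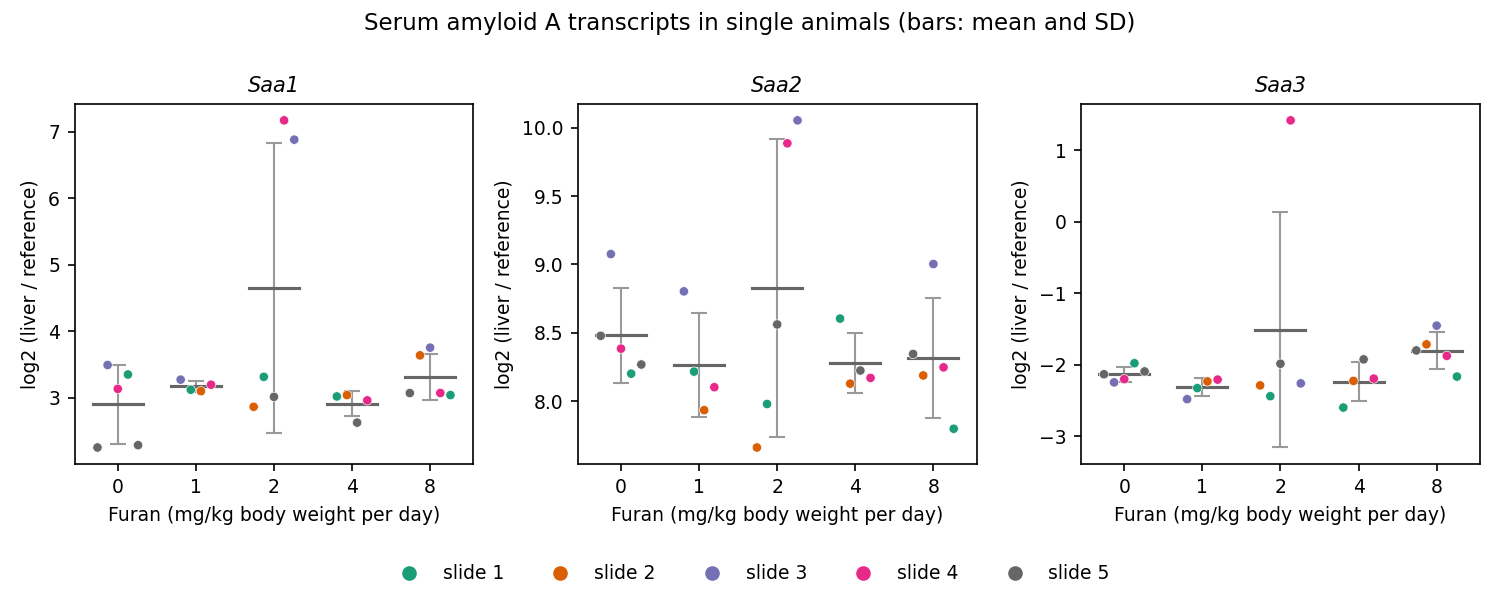
Log2 of liver over reference on the y axis against furan dose in mg/kg body weight per day for Saa1, Saa2 and Saa3; each point is 1 animal coloured by slide, with the group mean and SD. In Saa1 the 2 mg/kg animals at 7.17 (slide 4) and 6.88 (slide 3) stand apart from all others, and in Saa3 only the first of them does, at 1.42.

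Each of the 2 animals was then set against the animals on its own slide, 4 others for replicate 4 and 3 others for replicate 5, of other dose groups. Replicate 4 was above every other animal on its slide for 9 of 10 members (all but Crp), beside 26.4% of all genes tested. Replicate 5 was above every other for 8 of 10 members (all but Saa3 and Lbp), beside 21.3% of all genes. Over the whole study replicate 4 was the highest of 23 animals for 4 members, beside 8.24% of all genes, and replicate 5 for 6 members, beside 8.93%. These animals were singled out after their values were seen, so these counts are descriptions. As a fold of the slide mates, the ratio of replicate 4 was 16.9 for Saa1, 11.6 for Saa3, 4.07 for Orm3, 3.16 for Saa2, 2.93 for Hpx, 2.14 for Orm2, 1.83 for Lbp, 1.32 for Hp, 1.25 for Orm1 and 0.81 for Crp. For replicate 5 it was 10.4 for Saa1, 2.89 for Orm3, 2.13 for Saa2, 1.43 for Hpx, 1.31 for Lbp and 1.18 to 1.26 for Hp, Orm2, Orm1 and Crp, with Saa3 at 0.87.

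The 2 channels of these spots gave a different size. The Cy5 signal of Saa2, from liver RNA, was 9742 to 29642 on the other 21 arrays, 1011109 for replicate 4 and 481146 for replicate 5. The Cy3 signal of the same spot, from the reference RNA that is the same on every array, was 30.1 to 112 on the other 21 arrays, 1204 for replicate 4 and 532 for replicate 5. The reference signal was thus high on the same arrays as the liver signal, and a ratio of the channels is smaller than the difference in Cy5 alone. Saa1 had Cy5 signals of 11112 to 36462 on the other arrays, 1690019 for replicate 4 and 590375 for replicate 5, and Cy3 signals of 2110 to 4072, 12641 and 5861. For Orm3 the Cy5 signal was 337 to 1310 on the other arrays, 40582 for replicate 4 and 3095 for replicate 5, and the Cy3 signal 25.8 to 49.2, 600 and 53. Saa3 differed in this: its Cy5 signal was 1690 to 4629 on the others and 23317 for replicate 4, while its Cy3 signal of 10051 there lay inside the range of the others, 7680 to 14460.

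With Cy5 signals quantile-normalised between arrays and the reference left out, replicate 4 exceeded its slide mates 77-fold for Orm3, 71-fold for Saa1, 53.4-fold for Saa2, 12.9-fold for Saa3, 10.7-fold for Orm2 and 6.06-fold for Orm1. It exceeded them 3.61-fold for Lbp and 1.36-fold to 1.86-fold for Hp, Hpx and Crp. Replicate 5 exceeded its slide mates 27.3-fold for Saa2, 27.1-fold for Saa1 and 3.03-fold for Orm3, and 1.06-fold to 1.83-fold for Orm1, Orm2, Hp, Hpx, Lbp and Crp. Saa3 was at 0.774-fold. In Cy5 alone serum amyloid A and orosomucoid thus led in replicate 4, and Saa1 and Saa2 in replicate 5, an order that the ratio did not give: there Hpx exceeded Orm1 and Orm2 in replicate 4 and Orm3 exceeded Saa2 in replicate 5. Replicate 4 was above every slide mate for 10 of 10 members in Cy5 beside 21.7% of all genes, and replicate 5 for 8 of 10 beside 22.8%. Cy3 signals treated likewise exceeded the slide mates 28.3-fold for Saa2, 24.8-fold for Orm3 and 5.54-fold for Saa1 in replicate 4. As another measure, the highest of 23 arrays exceeded the lowest in Cy3 by 45.3-fold for Saa2, 29-fold for Orm3 and 7.41-fold for Saa1. The median of that measure over all genes was 1.54-fold. The cause of the high reference signal was not tested, and the size of the fold rests on the scale. Over 6 ways of forming the signal it ran in replicate 4 from 11.8 to 71 for Saa1, 3.04 to 53.4 for Saa2, 8.74 to 12.9 for Saa3 and 3.69 to 77 for Orm3. In replicate 5 it ran from 10 to 27.1 for Saa1, 2 to 27.3 for Saa2 and 2.78 to 3.26 for Orm3. With Cy5 alone the change at 2 mg/kg over all 5 animals was 2.48 ± 0.86 for Saa1 and 2.49 ± 0.79 for Saa2 (adjusted p = 0.763 and 0.633, limma), and 0 of 10 members passed at any dose or on the slope. Of all genes 6.99% passed at 8 mg/kg in Cy5 alone, 0.111% at 4 mg/kg, 0% at 2 and 1 mg/kg, 0.297% between 8 and 4 mg/kg and 9.56% on the slope. An unadjusted p under 0.05 (limma) was found for 1 member at 8 mg/kg and on the slope (Lbp) and for 2 at 2 mg/kg.

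**Figure D4:**
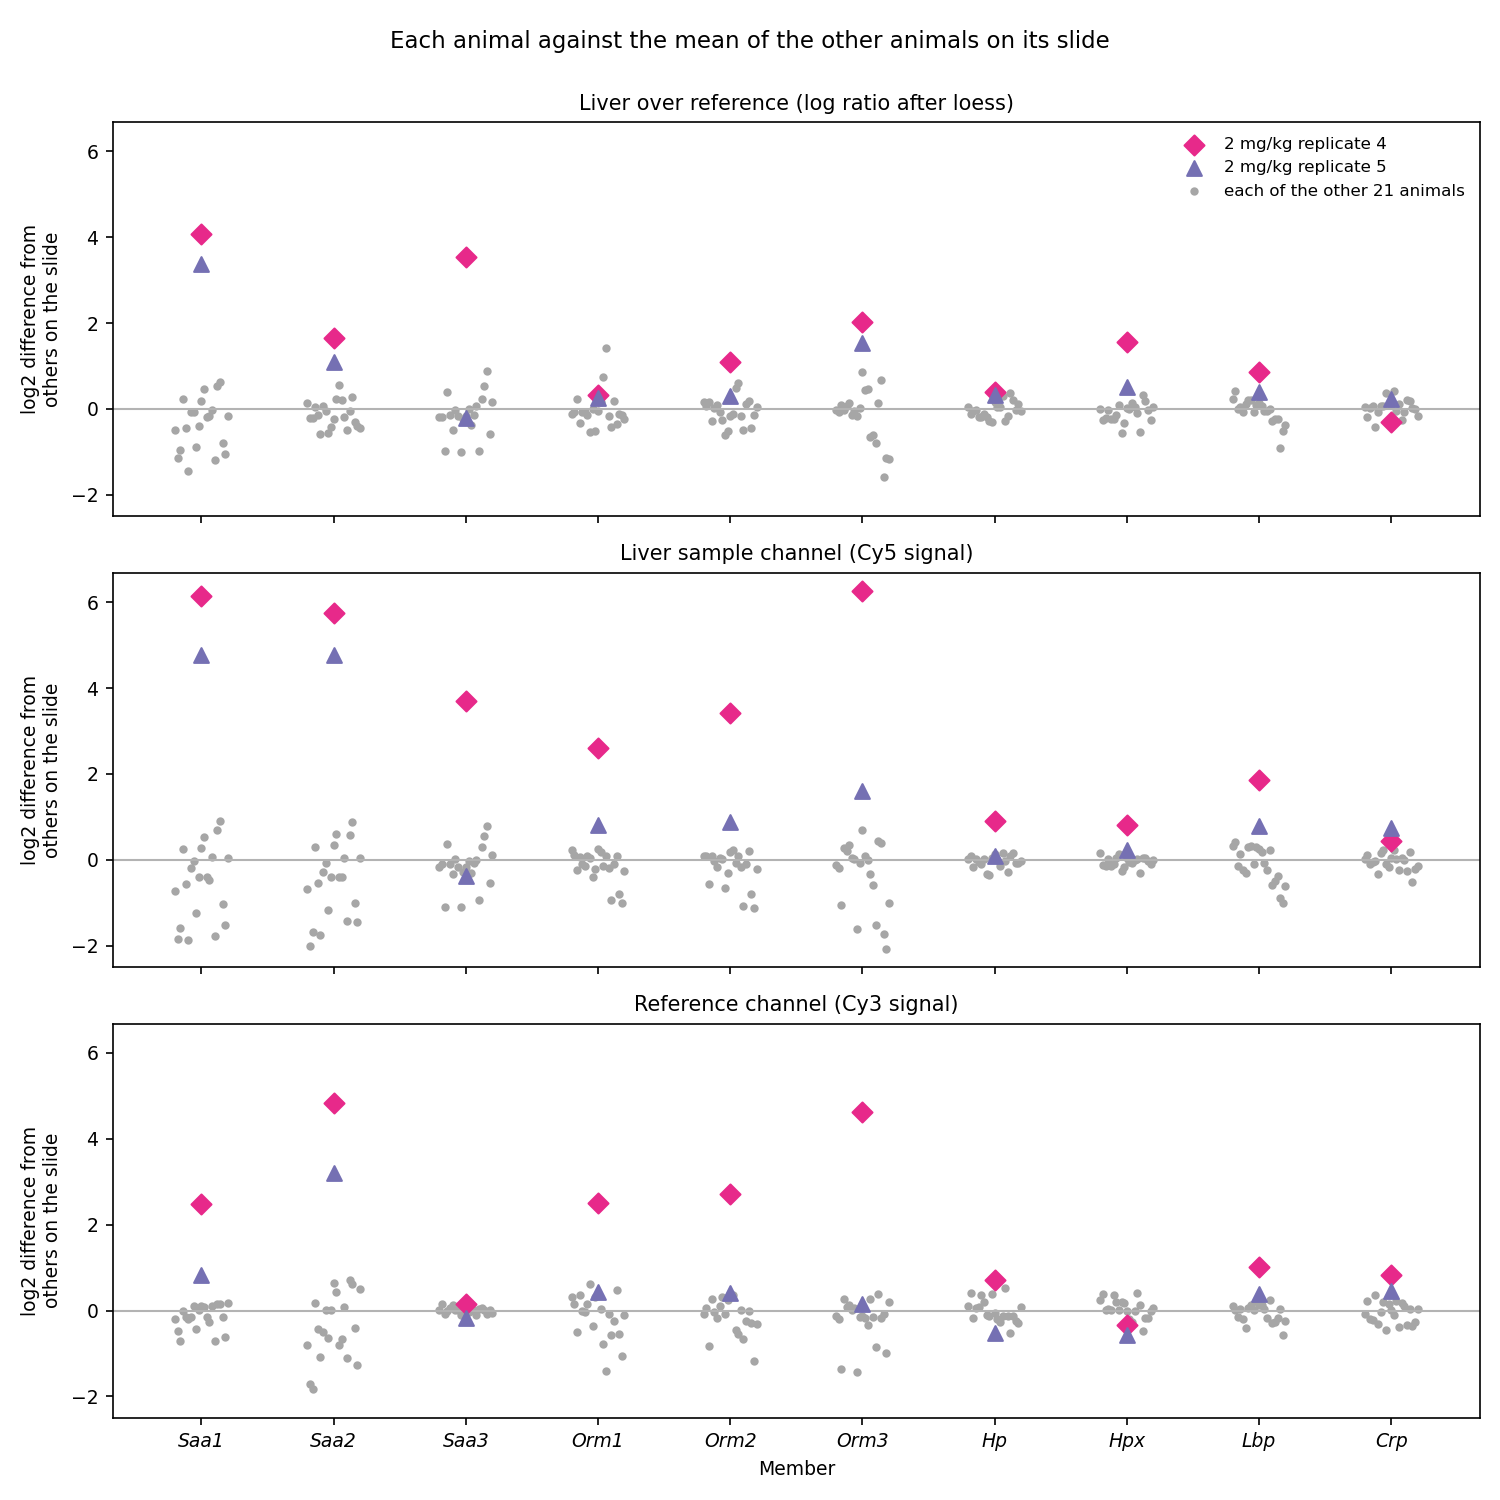
Log2 difference of each animal from the mean of the other animals on its slide (y axis) for each member (x axis), as the ratio of liver to reference (top), Cy5 signal alone (middle) and Cy3 reference signal alone (bottom); large symbols are 2 mg/kg replicates 4 and 5 and small points the other 21 animals. Saa2 and Orm3 in replicate 4 stand higher in both Cy5 and Cy3 than in the ratio, while Saa3 is high in the ratio and in Cy5 and lies with the others in Cy3.

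Other acute phase transcripts were described in the same animals. In Cy5 alone, 22 of 32 other positive acute phase proteins in replicate 4 and 20 in replicate 5 were above every other animal on the slide, beside the 21.7% and 22.8% of all genes. Of 15 negative acute phase proteins, which fall in the classical response, 2 and 3 were. In the ratio these counts were 20 and 25 for the positive and 9 and 6 for the negative proteins, beside 26.4% and 21.3% of all genes, so that in replicate 4 the lists had nearly equal shares, 62.5% and 60%. The following genes were chosen after their values were seen. Lcn2, an iron-sequestering protein of neutrophils and hepatocytes, was at 153-fold of the slide mates in replicate 4 and 10.5-fold in replicate 5 in Cy5 alone, and at 36-fold and 7-fold in the ratio. In Cy5 alone the metallothionein Mt2 was at 4.82-fold and 5.53-fold and Mt1 at 2.99-fold and 4.7-fold, against 8.93-fold and 8.11-fold for Mt2 and 7.45-fold and 6.62-fold for Mt1 in the ratio. Stat3, which carries the interleukin-6 signal, was at 1.78-fold and 1.88-fold in Cy5. The animals differed in the receptors and partners of the members: 12 of 13 were above every slide mate in replicate 4 and 1 of 13 in replicate 5 (13 and 1 in the ratio). In Cy5 Fpr2, a receptor for serum amyloid A, was at 9.62-fold and 1.3-fold, Cd14, the partner of Lbp, at 7.03-fold and 0.942-fold, and Tlr2, a receptor for bacterial lipoproteins, at 5.61-fold and 0.908-fold. The cytokine Il1b was above background on 12 of 23 arrays, that of replicate 4 among them, and Il6 on 0.

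Neutrophil markers were also high in replicate 4 and in part in replicate 5. Of 10 neutrophil markers 7 were above background in replicate 4, and 6 in replicate 5, against 2 to 5 on the other arrays. The array of replicate 5 also had the most probes above background in Cy5 of all 23, at 30120. The mean of the 4 markers tested lay 4.01 log2 units above the control mean in replicate 4 and 1.51 in replicate 5, against at most 0.92 elsewhere. Above every slide mate in the ratio were 4 of these 4 in replicate 4 and 2 of 4 in replicate 5, Lcn2 (counted above as an acute phase protein) and S100a8, while Camp was at 1.02-fold and S100a9 at 1.15-fold there. In Cy5 alone S100a9 was at 52.8-fold in replicate 4 and 3.97-fold in replicate 5, and Camp at 27-fold and 0.858-fold. S100a9 and Lcn2 were above background on 23 arrays, Ngp on 1 array (replicate 4), and Mmp8 and Mmp9 on 0. Kupffer cell and macrophage markers were above every slide mate for 7 of 8 in replicate 4 and 1 of 8 in replicate 5, and replicate 5 was also rich in pancreatic transcripts at 2.60. Saa3 and the receptors were high in replicate 4, as were the macrophage markers, whose mean ratio lay 1.02 log2 units above the control mean. In control replicate 4 the mean of these markers lay 0.74 above it, with Saa3 at -1.98. Endothelial markers were above every slide mate for 5 of 6 in replicate 4. The part of any of these cells in the values was not tested.

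The orosomucoids are carrier proteins of plasma, also called alpha-1-acid glycoproteins, that bind lipids and drugs and dampen inflammation. Orm3 stood out from Orm1 and Orm2, and its upstream sequence is shown beside that of Orm2 because their levels differed between animals while these sequences are alike. No entry was found for Orm1. The 250 bases before the start come from RefSeq (GRCm38.p6), Orm2 from chr4:63362199-63362448 and Orm3 from chr4:63355908-63356157, both on the plus strand. Capitals mark bases that differ or have no partner, and 218 of 245 aligned bases (89.0%) were identical.
Orm2: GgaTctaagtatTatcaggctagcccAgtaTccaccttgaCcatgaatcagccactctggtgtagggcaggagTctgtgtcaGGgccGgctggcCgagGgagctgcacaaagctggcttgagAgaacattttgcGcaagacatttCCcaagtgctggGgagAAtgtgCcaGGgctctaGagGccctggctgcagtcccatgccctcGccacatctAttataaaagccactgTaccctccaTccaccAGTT
Orm3: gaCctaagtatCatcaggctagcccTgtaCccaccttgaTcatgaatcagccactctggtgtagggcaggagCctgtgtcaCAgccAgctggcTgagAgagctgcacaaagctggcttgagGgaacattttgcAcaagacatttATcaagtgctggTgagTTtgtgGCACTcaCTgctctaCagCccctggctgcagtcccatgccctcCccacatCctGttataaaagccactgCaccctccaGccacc
An entry was found for 7 of 10 members (not Orm1, Hp or Lbp), and 7 motif forms were searched on both strands. The palindrome of C/EBP factors, TTGCGCAA, was in 1 of the 7 (Orm2), beside 0.164% of 32851 promoters of this length. With any base in its middle, TTGCNCAA, which includes the palindrome, it was in 4 of 7 (Saa1, Saa2, Orm2 and Orm3) beside 2.61%. In the sequences above Orm2 and Orm3 differ at that middle base. TTCNNNGAA (STAT) was in 0 beside 7.02%, CTGGGAA (interleukin-6 response) in 0 beside 9.1% and GGGANTTCC (NF-kB) in 0 beside 1.43%. Other spellings or lengths of these sites were not searched, so a count of 0 does not show that a site is absent. TTNNNCAA, which every TTGCNCAA contains, was in 6 of 7 (not Crp) beside 33.3%, and TTGCNNCAA, with a wider spacing than the palindrome, in 0 beside 1.74%. The palindromes and TTNNNCAA were added after results of other forms were seen.

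Orm3 had its highest levels in the same 2 animals and its lowest in the 8 mg/kg group. Its levels in the controls were 4.93, 4.74, 4.76, 3.94 and 5.00, and at 2 mg/kg 4.34, 4.66, 5.31, 6.30 and 5.94. At 4 mg/kg they were 4.34, 3.84, 4.46 and 4.04, and at 8 mg/kg 5.06, 4.84, 3.60, 3.76 and 3.04. At 8 mg/kg 3 animals lay below every control and the other two were near the highest controls, so the groups overlapped. At 1 mg/kg the levels were 4.89, 3.87, 4.29 and 4.54. The change at 8 mg/kg was -0.61 ± 0.38 (95% interval -1.40 to 0.18, adjusted p = 0.389, limma) and the slope -0.0934 per mg/kg (adjusted p = 0.25, limma). At 2 mg/kg it was 0.64 ± 0.38 (adjusted p = 0.679, limma). Orm1 had means of 9.07 ± 0.61 (SD, n = 5) in controls and 9.05 ± 0.64 (SD, n = 5) at 8 mg/kg, and its 5 group means spanned 0.139, less than the spread within any group. Orm2 had means of 8.62 ± 0.56 and 8.54 ± 0.42 (SD, n = 5 each), with group means spanning 0.267. For neither did any neighbours in the order of group means differ beyond their spread.

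Haptoglobin (Hp), which binds free haemoglobin, hemopexin (Hpx), which binds free haem, and C-reactive protein (Crp), which binds phosphocholine on microbes and dying cells, had no change that passed. Hp had means of 6.74 ± 0.40 in controls and 6.86 ± 0.38 at 8 mg/kg (SD, n = 5 each), a change of 0.12 with a 95% interval of -0.44 to 0.67 (adjusted p = 0.877, limma). Hpx had means of 8.85 ± 0.56 and 8.97 ± 0.59 (SD, n = 5 each; adjusted p = 0.924, limma). Crp had means of 8.19 ± 0.49 and 8.22 ± 0.53 (SD, n = 5 each), a change of 0.03 with an interval of -0.64 to 0.71 (adjusted p = 0.979, limma). The groups overlapped at every dose for all 3 genes.

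Slide 3 held high ratios of 7 members. After removal of the group means its 4 animals lay higher by 1.09 for Orm1, 1.02 for Hpx, 0.98 for Orm2, 0.86 for Crp, 0.84 for Saa1, 0.76 for Saa2 and 0.75 for Hp. Slide 3 includes 2 mg/kg replicate 5, and for Saa1 and Saa2 the shift lay in the Cy5 signal, at 0.71 and 0.53, with Cy3 at -0.22 and -0.10. For the other 5 it lay mainly in the reference channel: the Cy3 signal on slide 3 lay at -1.24 for Hpx, -1.20 for Hp, -0.91 for Orm1, -0.86 for Orm2 and -0.42 for Crp, and the Cy5 signal at -0.01, -0.15, 0.03, 0.03 and 0.21. With slide as a block the standard error of the change at 8 mg/kg fell for Hp from 0.27 to 0.11, and the change was 0.15 (adjusted p = 0.443, limma). The mean of the 8 hepatocyte markers, as the log ratio relative to the controls, was 0.75 to 1.04 in the slide 3 animals, against -0.62 to 0.15 on the other slides.

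How the members varied together among animals differed between the ratio and the Cy5 signal. Over the 21 animals other than 2 mg/kg replicates 4 and 5, with dose group means removed, 20 of 45 pairs of members had a correlation that passed (permutation test within dose groups, Benjamini-Hochberg over the 45 pairs), 19 of them positive. These permutations did not hold the slide fixed, and with slide means also removed 8 of 45 passed over the same animals. With the Cy5 signal alone 2 of 45 passed. These were Orm1 with Orm2 (r = 0.93, rho = 0.86, permutation p = 3e-05, adjusted p = 0.000675) and Saa1 with Saa2 (r = 0.89, rho = 0.88, permutation p = 1e-05, the smallest these permutations can give, adjusted p = 0.00045). In the ratio Saa1 with Saa2 had r = 0.41 and rho = 0.23 (permutation p = 0.103, adjusted p = 0.202). Conversely Hp with Crp had r = 0.94 in the ratio and 0.20 in Cy5 alone. Both pairs that passed are relatives within a gene family, and cross-hybridisation between them was not tested. Over all 23 animals 23 of 45 pairs passed in the ratio, with a median r of 0.59. Orm2 with Hpx then had r = 0.95 and rho = 0.88 (permutation p = 1e-05, adjusted p = 7.5e-05), 0.93 without the 2 animals farthest from the median of Orm2, and 0.84 with slide means removed.

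**Figure D5:**
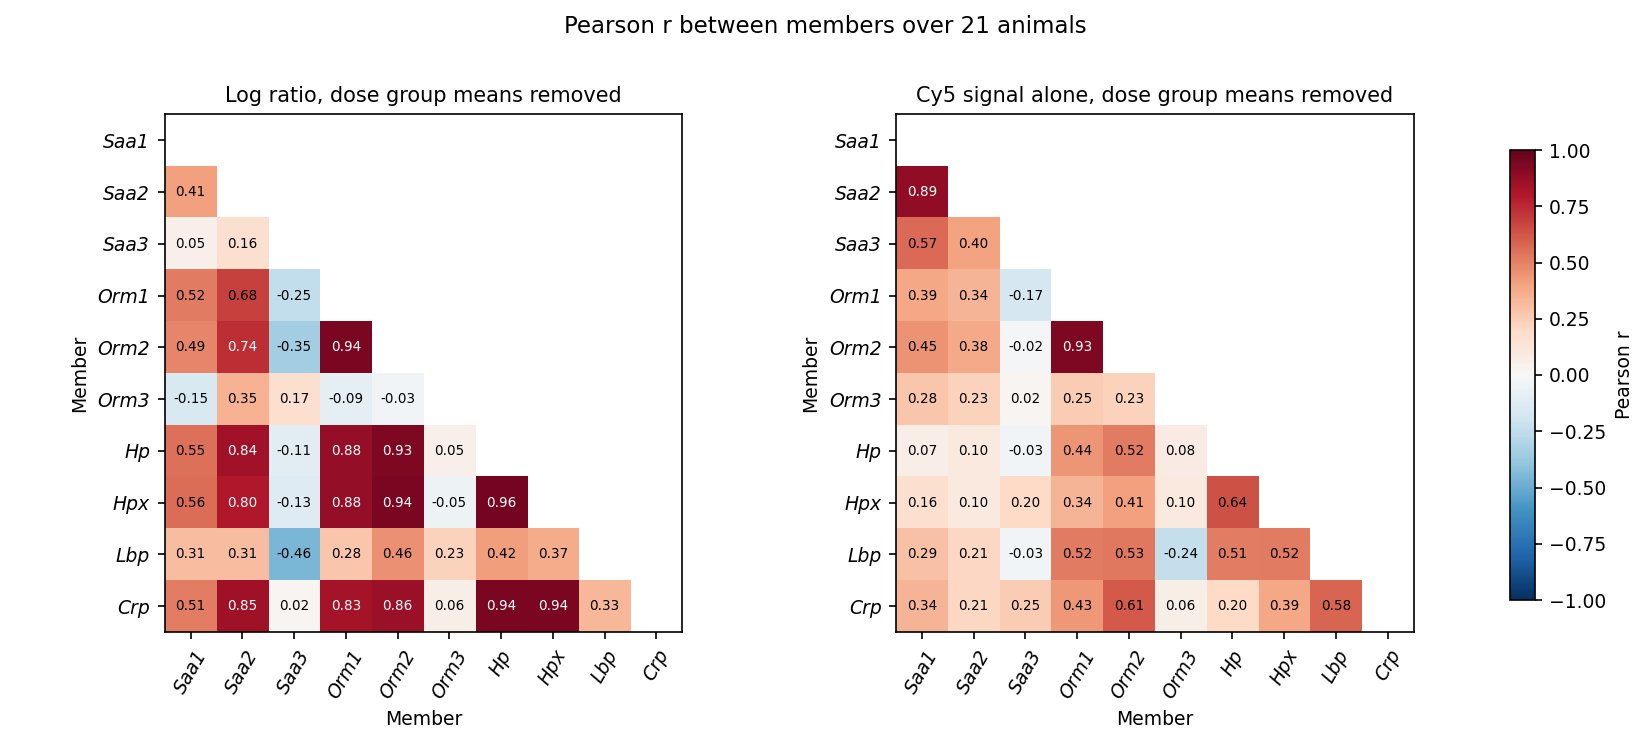
Pearson r for each of the 45 pairs of members over 21 animals with dose group means removed, from the ratio of liver to reference (left) and from the Cy5 signal alone (right); both axes list the members and colour runs from -1 to 1. Pairs among Orm1, Orm2, Hp, Hpx and Crp are at 0.83 to 0.96 on the left and 0.20 to 0.93 on the right, where Orm1 with Orm2 and Saa1 with Saa2 are the highest.

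Across the 23 animals the genes most like the mean of the Saa and Orm members, by mean r to the 6 of them, were Skap2 at 0.677, Eif6 at 0.664, Dnajc12 at 0.661, C4b at 0.651 and Lrg1 at 0.646. These points share slides and the 2 high animals, without which the mean r was 0.33 to 0.49.

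Among the other genes of the response, few passed at 8 mg/kg. Of 32 other positive acute phase proteins 0 passed, with 0 at an unadjusted p under 0.05 (limma) and a median change of 0.002. The lowest p values among them belonged to Mt1 at -0.71 ± 0.42 and the complement gene C4b at -0.22 ± 0.17 (adjusted p = 0.358 and 0.524, limma). Of 15 negative acute phase proteins, such as albumin and transthyretin, 0 passed and 1 had an unadjusted p under 0.05 (limma), the fetuin Fetub at -0.39 ± 0.17 (adjusted p = 0.167). Igf1, a growth factor secreted by the liver, was at 0.16 ± 0.18 (adjusted p = 0.698, limma). Among 10 cytokines and receptors 1 fell: Il1rap, the shared accessory chain of interleukin-1 receptors, by 0.56 ± 0.15 (adjusted p = 0.0249, limma), a call that held in 28 of 40 other settings. Leaving out any 1 of control replicates 2 and 5 and 8 mg/kg replicates 1, 4 and 5 ended it. The call was also lost with raw median signals, normexp, no filter on dim probes, the deposited ratios and scale normalization. The same held without the 4 arrays rich in pancreatic transcripts and with only the groups compared. Settings that only left out animals of other doses alter this comparison through the shared spread alone. Il6st, the signal chain of the interleukin-6 receptor, was at -0.18 ± 0.10 (adjusted p = 0.343, limma). Of 18 signalling and transcription factors 0 passed at 8 mg/kg and 1 at an unadjusted p under 0.05 (limma): Rela, a subunit of NF-kB, at 0.21 ± 0.07 (adjusted p = 0.0676), which passed as higher with slide as a block and rose on the dose slope (adjusted p = 0.0272, limma). Bcl3, an NF-kB cofactor, was at 0.25 ± 0.13 (adjusted p = 0.263, limma). Of 13 receptors and partners 1 rose: Hmox1, which breaks down the haem that Hpx delivers, by 1.09 ± 0.25 (adjusted p = 0.00885, limma), in 40 of 40 other settings. Its relative Hmox2 was at -0.24 ± 0.08 at 8 mg/kg (adjusted p = 0.0753, limma) and fell on the slope (adjusted p = 0.0246, limma). No gene of these lists passed at 4, 2 or 1 mg/kg. The shares of all genes that passed, 8.01% at 8 mg/kg and 10.4% on the slope, are the background for these counts. Single genes of the cell type marker lists also passed at 8 mg/kg. Cidec, a lipid droplet protein and the 1 of 6 adipose markers that could be tested, rose by 1.33 ± 0.36 (adjusted p = 0.0272, limma). In the 8 mg/kg animals 1 to 2 of the 6 adipose markers were above background, against 1 to 3 in the controls. The other adipose markers were not tested, so the list cannot show whether they rose too. Eng, 1 of 6 endothelial markers, fell by 0.47 ± 0.14 (adjusted p = 0.0457, limma). The part of other cells in these changes was not tested.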

How the data were processed

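Liver RNA of 23 mice was hybridised with a common reference on 2-colour arrays, and per the file headers each array was read with Agilent Feature Extraction 10.7.3.1. The deposited scanner files hold intensity values per spot, already background-subtracted and dye-normalised by that software per the file headers. A separate table, also deposited, gives a ratio of Cy5 to Cy3, and how it was normalised is not given in the sources used here; its column medians ran from 0.974 to 0.987, and on the log2 scale it had r of 0.995 to 0.996 with raw median signals after loess. From the deposited intensities log2 ratios were computed here, with loess within each array (span 0.3, 4 iterations).

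A probe stayed in if 4 or more arrays of some group had its Cy5 signal well above background (25574 of 55681), with 3 or more values in each group. The systematic names of probes were matched to RefSeq symbols (20018 matched, GRCm38.p6, used for names and promoter sequences, while the headers name another build). The brightest probe stood for a gene. limma 3.58.1 in R 4.3.3 was fitted over all 23 arrays with group as the only term (18 residual degrees of freedom), two-sided, with Benjamini-Hochberg adjustment over 19898 genes and a threshold of 0.05. The code was checked on simulated data. Pairs were tested by 100000 permutations within dose groups, in Python 3.11.15 with NumPy 2.4.6 and SciPy 1.17.1.

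The members and gene lists were chosen with earlier results of these data known. Genes named outside the members were those of the lists that passed, that had the lowest p of their list, or that were said to be chosen after their values were seen. The number of arrays limits the precision. Same-numbered animals of different groups had a median r of 0.023 (43 pairs, 14 over 0.1). Differently numbered animals had a slightly lower median r of -0.041 (168 pairs, 34 over 0.1). With a median so near 0 the numbers were not used as a pairing in the main test. Alternatives left out single animals, added slide or replicate number as a block, and changed the signal, normalization and filter; those with Cy5 alone for pairs, with scale normalization and without 2 mg/kg replicates 4 and 5 were chosen after seeing the data.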

Additional observations from a re-analysis of the deposited data

Results flagged for a closer look

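Of 50 sets of 1 member in 1 dose group, 7 held an animal whose gap to the nearest other exceeded Dixon's 95% critical value, in 4 animals, where chance gives such a gap in about 5% of sets. Saa3 in 2 mg/kg replicate 4 was the highest of its group at 1.42, with the nearest at -1.99. In control replicate 2 the highest values of the group were Orm1 at 10.14 (nearest 9.04), Orm2 at 9.61 (nearest 8.45) and Hp at 7.44 (nearest 6.68). In 8 mg/kg replicate 3 Hpx was the highest at 9.97 (nearest 8.93) and Lbp the lowest at 2.34 (nearest 2.55). Control replicate 2 and 8 mg/kg replicate 3 both lay on slide 3. Orm3 in control replicate 4 was the lowest of its group at 3.94 (nearest 4.74).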

How the results depend on the processing

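The number of members that passed at 8 mg/kg, 1 as reported, was 0 with median centring, with Cy5 alone, with raw median signals, with normexp, with no filter on dim probes, with the replicate block, without the 4 arrays rich in pancreatic transcripts and, added after seeing the data, with scale normalization; over single left-out animals it ran from 0 to 1. On the dose slope, also 1 as reported, the number was 0 with Cy5 alone and with scale normalization. Of all genes 9.56% and 4.99% passed there. It was 2 (Saa3 and Lbp) without 2 mg/kg replicate 4, without both 2 mg/kg animals high in Saa1, and with slide as a block without both. Of all genes 11.7%, 13.7% and 18.5% passed in these settings, in that order. Over left-out animals the number of members ran from 1 to 2. Of 45 pairs, 23 passed as reported, 8 with slide means removed without both animals, and 2 with Cy5 alone without both. Over all genes 1593 passed at 8 mg/kg (845 higher, 748 lower), against 791 with scale normalization, 930 with no filter, 931 in the deposited table, 1009 with normexp, 1013 with raw signals, 1039 with only the groups compared and 2689 with slide as a block without both animals. With median centring 1126 were higher and 409 lower. On the slope 2068 passed, against 992 with scale normalization, 1298 in the deposited table, 1350 with normexp and 3673 with slide as a block without both. The cause of these differences was not tested.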
